A study of Mus musculus with 17 samples.

Results

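The shear stress response genes described here are 7 genes of the endothelial answer to blood flow: Klf2, Klf4, Nos3, Edn1, Piezo1, Thbd and S1pr1. They were taken by name, with earlier results of these data known, from 49585 genes counted in each of 17 RNA-seq libraries of mouse bone marrow endothelial cells, and all 7 were found under 1 Ensembl identifier each. Flowing blood drags on the endothelial surface, and channels such as PIEZO1 open under that force. In laminar flow, signalling through the kinases MEKK3 and ERK5 and the transcription factor MEF2 raises the transcription factors KLF2 and KLF4, which in turn raise endothelial nitric oxide synthase (Nos3) and thrombomodulin (Thbd) and hold down the vasoconstrictor endothelin-1 (Edn1). S1PR1, the receptor for the blood lipid sphingosine-1-phosphate, keeps endothelial junctions closed and is also needed for the alignment of cells with flow.

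Endoglin, encoded by Eng, is a co-receptor for BMP9 and BMP10 on endothelial cells and takes part in their response to flow, so the comparison asks whether flow-responsive genes differ after Eng is removed. The wild-type (WT) mice and the knockout (KO) mice, of the line Cdh5:CreERT2-Eng f/f, all carry the tamoxifen label. The drug, given when the mice were 8 weeks old, activates a Cre enzyme expressed from the Cdh5 promoter of endothelial cells, and Cre then cuts out the floxed part of Eng. The labels do not say whether WT mice carried the Cre. Cells were taken 2 or 4 weeks after induction from crushed long bones and sorted as CD45-, Ter119-, CD31+ and Sca1+ per the protocol, while the design text gives that gate without Sca1. SmartSeq2, which amplifies whole polyadenylated transcripts, was used for sequencing. The 2-week groups hold 4 WT and 4 KO libraries, with 2 females and 2 males in each. At 4 weeks, 5 WT libraries (2 from females) stand against 4 KO libraries (1 from a female). A library's name gives its sex and number (f1, m2), and the unnumbered 4-week WT female is f.

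Depth was 20477400 to 40882715 counts. At 2 weeks 10886 to 13583 genes had a count and 22.2% to 29.5% of counts were mitochondrial, against 15996 to 21235 genes and 4.66% to 8.99% at 4 weeks, so a time point cannot be told apart from a batch. Each of 14 endothelial markers was detected in every group, and their summed level was 5510 to 8108 CPM (counts scaled to an equal library total) at 2 weeks and 12709 to 15412 CPM at 4 weeks, split by genotype beside the members' values. In the 2-week KO group, m2 and m3 held 4162 and 3150 CPM of 10 summed neutrophil genes, against 107 and 238 CPM in f1 and f4 and 22.6 to 110 CPM in the 2-week WT libraries. Hemoglobin and other erythroid genes summed to 278 to 1248 CPM in 2-week KO against 61.4 to 195 CPM in WT, and to 611 to 2900 CPM against 165 to 1273 CPM at 4 weeks. Eng itself was at 705 to 1307 CPM in WT and 225 to 347 CPM in KO at 2 weeks, and at 2400 to 2735 CPM in WT and 274 to 1647 CPM in KO at 4 weeks. The genotypes did not overlap in Eng at either time, and 4-week KO m2 kept the most Eng, 63.7% of the WT mean. These counts cover the whole gene, including exons that Cre leaves in place. In edgeR's quasi-likelihood test the Eng fold change averaged over both times was -1.83 on the log2 scale (SE 0.31, adjusted p = 0.0378), and with the replicate block (the number within a time point, with the 4-week females f, f3 and f2 as 1 block because they share no number) it was -1.97 (adjusted p = 0.0861). The Eng call held in 14 of 26 alternatives. It was lost in voom (adjusted p = 0.21) and without any 1 of 10 libraries (each 4-week WT library, 4-week KO f2, m1 or m3, and 2-week KO f1 or f4; edgeR adjusted p from 0.0502 to 0.125), while its log2 fold change stayed between -2.15 and -1.69 in all 26.

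Promoter sequences of Klf2 and Klf4 are shown because both factors are switched on together by flow and because they had the highest correlation of any member pair at 4 weeks, one that did not pass after adjustment. They are the 250 bases before the RefSeq start on build GRCm38.p6, given 5′ to 3′ on the gene's strand, at chr8:72318812-72319061 (plus strand) for Klf2 and chr4:55532476-55532725 (minus strand) for Klf4. The GENCODE start of Klf2 lies inside its window. The RefSeq table held 4 of the 7 members. Capitals mark matches to the MEF2 consensus (the run of 10 capitals) and to CACCC, the core letters bound by KLF factors, here read on the opposite strand as GGGTG.
Klf2: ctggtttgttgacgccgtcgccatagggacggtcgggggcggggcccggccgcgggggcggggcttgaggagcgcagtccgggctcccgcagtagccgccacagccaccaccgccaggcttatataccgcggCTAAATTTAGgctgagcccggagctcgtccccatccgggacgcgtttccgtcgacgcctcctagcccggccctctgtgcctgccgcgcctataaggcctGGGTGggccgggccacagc
Klf4: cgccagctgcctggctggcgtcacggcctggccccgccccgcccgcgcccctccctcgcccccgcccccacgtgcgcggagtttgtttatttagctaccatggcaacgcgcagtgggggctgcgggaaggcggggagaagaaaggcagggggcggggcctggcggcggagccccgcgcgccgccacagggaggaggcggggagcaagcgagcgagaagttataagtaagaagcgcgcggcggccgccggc
Both strands were searched for CACCC, for MEF2, for the AP-1 letters TGACTCA and for GGCGCC, a BMP-responsive SMAD element. No motif overlapped another in the 250 bases before Klf2. The Klf2 window held 1 MEF2 match and 1 CACCC match, and the Klf4 window held no match to any of the 4 motifs. Of 32851 promoter windows of the same length, 2.92% held a MEF2 match, 52.0% a CACCC match, 4.46% an AP-1 match and 9.59% a GGCGCC match. Among the other members with a sequence in the table, Edn1 had 2 CACCC matches and Piezo1 had 1, with no match to the other motifs. G and C made up 71.2% of the Klf2 window, 74.0% of the Klf4 and Piezo1 windows and 50.4% of the Edn1 window, against a median of 52.4%. A match is a description of the letters, and binding was not measured.

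Per length, the 7 genes spanned a wide range in WT cells. At 4 weeks S1pr1 was highest at 1066 ± 133 TPM (counts per base of exon, scaled to the same total in each library; SD, n = 5), followed by Thbd at 429 ± 148, Klf2 at 339 ± 38.9, Klf4 at 196 ± 25.0, Nos3 at 161 ± 56.0, Edn1 at 133 ± 41.5 and Piezo1 at 22.2 ± 5.74. By library ranges S1pr1 stood clear above Thbd, Klf2 above Klf4, and Edn1 above Piezo1. Thbd and Klf2, Klf4 and Nos3, and Nos3 and Edn1 overlapped. In 4-week KO cells the TPM order was S1pr1 at 900 ± 216, Klf2 at 264 ± 106, Thbd at 247 ± 117, Klf4 at 163 ± 45.8, Nos3 at 130 ± 63.2, Edn1 at 110 ± 27.5 and Piezo1 at 22.3 ± 5.76 (SD, n = 4).

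**Figure D1:**
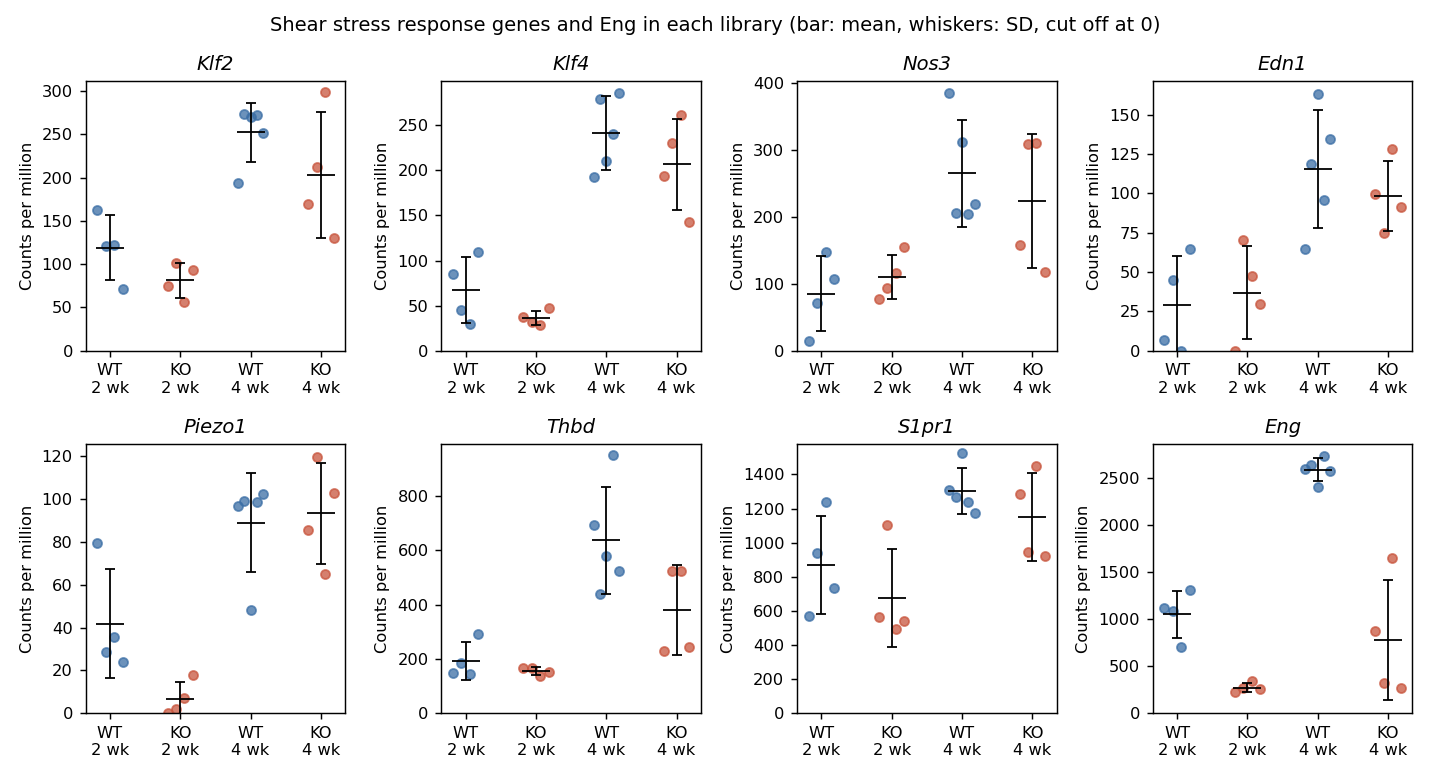
CPM (linear axis from 0) of each of the 7 genes and of Eng in every library, by genotype and time; points are libraries, horizontal bars the group mean and whiskers the SD, cut off at 0. Eng separates WT from KO at both times, Piezo1 separates them at 2 weeks only in library ranges, and most genes sit higher in the 4-week libraries.

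No shear stress gene passed the test between KO and WT at either time. The deleted gene Eng did not pass in edgeR either, at -1.96 (adjusted p = 0.612) at 2 weeks and -1.72 (adjusted p = 0.9997) at 4 weeks. A change as large as that of Eng was thus not called in these fits. DESeq2 called Eng at 2 weeks and not at 4 weeks. At 2 weeks 0 of 7 members, and 0 of 10477 genes tested (0%), had an adjusted p below 0.05 in edgeR, with 276 genes below an unadjusted 0.05, 149 called by DESeq2 and 12 by limma voom. At 4 weeks 0 of 7 members and 0 of 15209 genes (0%) passed in edgeR, with 422 genes below an unadjusted 0.05, 17 called by DESeq2 and 0 by voom. No member was among the calls of either tool. Of the members, 5 of 7 had lower fitted values in KO at 2 weeks (median log2 fold change -0.37, against -0.06 over all genes). Lower values were fitted for 6 of 7 at 4 weeks (median -0.24, against 0.01). Of all genes tested, 53.1% were lower at 2 weeks and 48.7% at 4 weeks. The 14 summed endothelial markers were also lower in every 2-week KO library (5510 to 6318 CPM) than in every WT library (6366 to 8108 CPM), with 10 of 13 tested markers lower in KO (median -0.19). At 4 weeks their sums overlapped (12709 to 14418 CPM in KO, 14153 to 15412 CPM in WT), with 8 of 14 lower (median -0.05). Their part in the members' lower values was not tested. In sorted bulk samples fewer cells of a type and less RNA per cell cannot be told apart.

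Piezo1, the force-gated cation channel (ENSMUSG00000014444, chr8:122481698-122551329, minus strand), had the largest fold difference of the members at 2 weeks. The 2-week WT libraries held 79.3 (f1), 28.7 (f4), 35.5 (m2) and 23.8 CPM (m3), and the KO libraries held 0.04 (f1, a single count), 2.03 (f4), 7.27 (m2) and 17.7 CPM (m3). The highest KO library was below the lowest WT library, and KO averaged 16.2% of the WT mean. The exact permutation test on log2 CPM gave an unadjusted p = 0.0286, the smallest that 4 against 4 libraries allow (two-sided, difference -4.05). In edgeR the log2 fold change was -3.44 (SE 1.85, 95% interval -7.83 to 0.95, adjusted p = 1). Piezo1 was 1 of 7 members with no overlap and lower in KO, where 1.78% of all genes tested showed the same. The KO libraries with the most neutrophil RNA, m2 and m3, had the most Piezo1 of their group, and without both the fitted difference was -5.71. Without 1 of the 4 WT libraries the exact permutation p was 0.0571 (f4, m2 or m3 left out) or 0.0857 (f1 left out), above the threshold of 0.05, whereas it stayed at 0.0286 without 1 of the KO libraries. The size of the difference rested in part on KO f1, the library with a single count: without it the log2 CPM difference was -2.52 and the edgeR value -2.31.

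At 4 weeks no such gap was seen in Piezo1. WT libraries held 96.5 (f), 99.2 (f3), 48.0 (m1), 98.5 (m2) and 102 CPM (m3), and KO libraries held 85.7 (f2), 120 (m1), 64.9 (m2) and 102 CPM (m3). The groups overlapped, with WT m1 the lowest of all 9 libraries. The fitted change was 0.11 (SE 0.28, 95% interval -0.52 to 0.74), an interval that reaches from 0.70-fold to 1.67-fold. The KO effect on Piezo1 was higher at 4 than at 2 weeks by 2.76 on the log2 scale (SE 1.31, 95% interval -0.04 to 5.55, adjusted p = 0.54 in edgeR), and without 2-week KO m2 and m3 by 5.62 (adjusted p = 0.0531). In that test of a change in KO effect 0 of 7 members passed, where 14 of 13515 genes (0.104%) did, and 0 genes with a replicate block. Exons of Piezo1 overlap those of Ctu2 on the opposite strand over 2441 bases, and the strand setting of the counting is not given in the sources used here, so part of these counts may belong to Ctu2.

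Klf2, the flow-induced transcription factor whose promoter is printed above (ENSMUSG00000055148, chr8:72319033-72321656, plus strand), was lower in mean in KO at both times without passing the test. At 2 weeks WT libraries held 163 (f1), 121 (f4), 122 (m2) and 70.8 CPM (m3), and KO libraries held 74.5 (f1), 101 (f4), 56.4 (m2) and 93.3 CPM (m3). All 4 KO libraries were below the WT median, but WT m3 lay among them, so the groups overlapped. The 2-week log2 fold change was -0.51 (SE 0.31, 95% interval -1.25 to 0.23) and the exact permutation test gave p = 0.171.

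At 4 weeks Klf2 was at 194 (f), 274 (f3), 270 (m1), 272 (m2) and 252 CPM (m3) in WT. The KO libraries held 169 (f2), 212 (m1), 299 (m2) and 130 CPM (m3). KO f2 and m3 were below every WT library, KO m1 lay inside the WT range and KO m2, the library that kept most Eng, was the highest of all 9. The log2 fold change was -0.35 (SE 0.23, 95% interval -0.87 to 0.17), with an exact permutation p of 0.159. KO m1, inside the WT range of Klf2, held 12.4% of the WT mean of Eng, and f2 and m3, below it, held 33.8% and 10.6%. The mean log2 CPM difference was -0.37 over all libraries. Leaving out 1 KO library gave -0.31 (f2, exact permutation p = 0.375), -0.42 (m1, p = 0.25), -0.58 (m2, p = 0.0357) and -0.18 (m3, p = 0.429), so its size depended on m2 and m3. The 22 immediate early genes, a group that also answers to cell isolation, summed to 14025 (f2), 20146 (m1), 20858 (m2) and 15849 CPM (m3) in KO, with f2 and m3 again the lower ones, and to 13326 to 21246 CPM in WT, where f, lowest in Klf2, had the highest sum. The part of that list in the Klf2 difference was not tested.

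Klf4, the related factor (ENSMUSG00000003032, chr4:55527143-55532466, minus strand), overlapped between genotypes at 2 weeks, with KO m2 just below the lowest WT library. The libraries held 84.9 (f1), 45.0 (f4), 30.2 (m2) and 109 CPM (m3) in WT and 37.7 (f1), 31.7 (f4), 28.6 (m2) and 47.0 CPM (m3) in KO. KO averaged 53.8% of WT, with KO values close together and WT f1 and m3 high. On the log2 scale KO differed by -0.91 (SE 0.54, 95% interval -2.20 to 0.38) and the exact permutation p was 0.2. Its size moved to -0.43 without WT m3 and to -1.19 without WT m2.

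At 4 weeks Klf4 stood at 193 (f), 279 (f3), 210 (m1), 240 (m2) and 286 CPM (m3) in WT and at 194 (f2), 230 (m1), 261 (m2) and 143 CPM (m3) in KO. Only KO m3 was below the WT range. The log2 fold change was -0.23 (SE 0.21, 95% interval -0.71 to 0.24), and the exact permutation p was 0.302. Without KO m3 the fold change was -0.10.

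Thbd encodes thrombomodulin, the endothelial receptor that turns thrombin into an activator of protein C (ENSMUSG00000074743, chr2:148404466-148408188, minus strand). At 2 weeks the WT libraries held 147 (f1), 185 (f4), 143 (m2) and 294 CPM (m3) and the KO libraries 167 (f1), 168 (f4), 139 (m2) and 153 CPM (m3). The KO values lay inside or just below the WT range, and the log2 fold change was -0.29 (SE 0.28, 95% interval -0.97 to 0.38), or 0.043 without WT m3.

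At 4 weeks Thbd showed the largest difference in mean level among the members. WT libraries held 691 (f), 440 (f3), 577 (m1), 950 (m2) and 523 CPM (m3), and KO libraries held 231 (f2), 522 (m1), 525 (m2) and 242 CPM (m3). All 4 KO libraries were below the WT median, f2 and m3 were far below every WT library, and m1 and m2 overlapped the lower WT values. KO averaged 59.8% of WT, a log2 fold change of -0.83 (SE 0.29, 95% interval -1.49 to -0.18), which did not pass over all genes (adjusted p = 1 in edgeR). The exact permutation p was 0.0714 on log2 CPM, 0.0397 with TMM-scaled library sizes and 0.0357 (without KO m2) to 0.179 (without KO f2 or m3) with 1 library left out. That test does not use the replicate numbers. At 4 weeks WT m1 and m3, but not m2, were most correlated with the KO library of the same number. KO was below the WT library of the same number for m1, m2 and m3, and edgeR with the replicate block gave -0.86 (adjusted p = 0.994). Thbd was 1 of 7 members lower in KO at an unadjusted p below 0.05, where 1.47% of all genes were, and 0 of 7 members had every KO library below every WT library, where 0.526% of all genes did.

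Thbd and Nos3 can be read beside a list of 10 stromal and mural markers. Its summed level at 4 weeks was 5437 (f), 1694 (f3), 3464 (m1), 4843 (m2) and 1915 CPM (m3) in WT and 1488 (f2), 3519 (m1), 4585 (m2) and 1445 CPM (m3) in KO. KO f2 and m3, the lowest libraries in Thbd and Nos3, also had the lowest sums. WT f3 and m3 had the next lowest sums and the lowest Thbd of the WT libraries (440 and 523 CPM), with Nos3 at 206 and 219 CPM. In contrast, WT m2 had a high sum, the highest Thbd and a Nos3 of 204 CPM. Most of the sum was Cxcl12 (818 to 2803 CPM) and Rgs5 (284 to 2336 CPM), which marrow endothelial cells can express as well. The other 8 genes did not all follow it: Acta2, of smooth muscle, was highest in KO f2 (281 CPM) and lowest in WT m1 (84.0 CPM). Myh11, also of smooth muscle, was at 14.9 to 76.2 CPM, the pericyte receptor Pdgfrb at 0.83 to 69.7 CPM and the stromal receptor Lepr at 14.8 to 62.6 CPM. The collagen genes Col1a1 and Col1a2 were at 8.33 to 48.7 and 6.89 to 33.6 CPM, and the fibroblast genes Pdgfra and Prrx1 at 0 to 4.0 and 0.037 to 3.45 CPM. The part of these markers in the Thbd and Nos3 values was not tested.

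**Figure D2:**
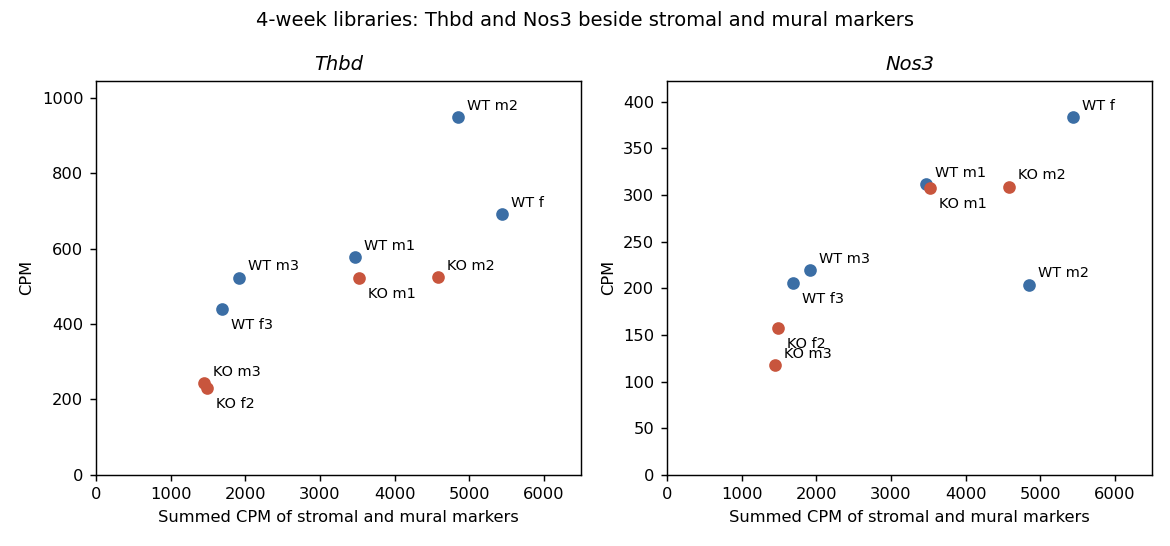
Thbd and Nos3 (CPM) in the 9 libraries at 4 weeks against the summed CPM of 10 stromal and mural markers, led by Cxcl12 and Rgs5; blue points are WT, red points KO. KO f2 and m3 are lowest on both axes in both panels, and WT m2 is highest in Thbd but at 204 CPM in Nos3.

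Nos3 encodes endothelial nitric oxide synthase (ENSMUSG00000028978, chr5:24364810-24384474, plus strand). Its 2-week libraries held 14.6 (f1), 71.9 (f4), 148 (m2) and 107 CPM (m3) in WT and 77.3 (f1), 94.0 (f4), 116 (m2) and 154 CPM (m3) in KO. The groups overlapped, with WT f1 far below the rest, and KO averaged 129% of WT. The log2 fold change was 0.56 (SE 0.50, 95% interval -0.63 to 1.74). It rested on WT f1, without which it was 0.18, and it was 0.96 without WT f4.

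At 4 weeks Nos3 was at 384 (f), 206 (f3), 312 (m1), 204 (m2) and 219 CPM (m3) in WT. KO f2 and m3 held 157 and 118 CPM, below all WT libraries, while KO m1 and m2 held 308 and 309 CPM. Its 4-week log2 fold change was -0.25 (SE 0.34, 95% interval -1.01 to 0.52), and 0.0018 without KO f2. Its exons overlap 1040 bases of the antisense gene Gm15587 and 294 bases of Atg9b, both on the other strand. Reads of these genes in the shared bases could not be told apart here. Gm15587 was also the gene most like Nos3 across the 4-week libraries (r = 0.995).

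S1pr1, the junction-sealing lipid receptor (ENSMUSG00000045092, chr3:115710433-115715072, minus strand), was abundant in every library. At 2 weeks it stood at 568 (f1), 938 (f4), 1238 (m2) and 733 CPM (m3) in WT and at 566 (f1), 1102 (f4), 495 (m2) and 541 CPM (m3) in KO. KO f4 stood well above the other 3 KO libraries, and the groups overlapped (log2 fold change -0.37, SE 0.34, 95% interval -1.17 to 0.43). Without KO m2 and m3 the sign turned, to 0.13, and with 1 library left out the value ran from -0.71 (without KO f4) to -0.14 (without WT m2).

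At 4 weeks S1pr1 was at 1307 (f), 1269 (f3), 1523 (m1), 1237 (m2) and 1175 CPM (m3) in WT. The KO libraries held 1282 (f2), 946 (m1), 1446 (m2) and 921 CPM (m3). KO m1 and m3 were below the WT range and f2 and m2 inside it. The log2 fold change of -0.16 (SE 0.16) had the narrowest interval of the 7, -0.51 to 0.19, which is 0.70-fold to 1.14-fold. It was -0.28 without KO m2 and -0.07 without WT m1.

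Edn1 encodes endothelin-1, the peptide that KLF2 holds down in laminar flow (ENSMUSG00000021367, chr13:42301476-42307990, plus strand). It was too erratic at 2 weeks to compare: WT libraries held 6.61 (f1), 45.2 (f4), 0 (m2) and 64.4 CPM (m3), and KO libraries held 0.07 (f1, 2 counts), 70.4 (f4), 47.6 (m2) and 29.4 CPM (m3). A count of 0 in WT m2 allows up to 3 counts, 0.0921 CPM, by counting error alone. Its fitted change was 0.34 with an SE of 2.11 and a 95% interval of -4.67 to 5.35.

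At 4 weeks every library had Edn1, at 64.5 (f), 118 (f3), 163 (m1), 96.0 (m2) and 135 CPM (m3) in WT and 99.9 (f2), 74.8 (m1), 128 (m2) and 91.6 CPM (m3) in KO. The KO values lay inside the WT range. Its log2 fold change was -0.24 (SE 0.27, 95% interval -0.86 to 0.38), and -0.41 without KO f2 or -0.10 without WT m1. Its exons overlap the antisense gene Gm47118 over 35 bases.

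**Figure D3:**
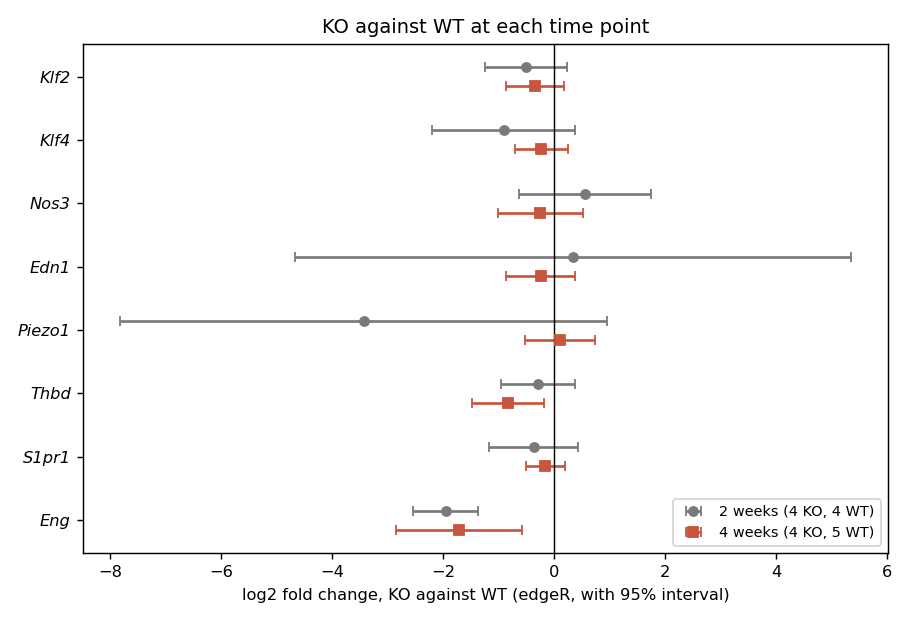
Log2 fold change of KO against WT for the 7 genes and Eng from edgeR at 2 weeks (grey circles) and 4 weeks (red squares), with 95% intervals. The 2-week intervals of Piezo1 (-7.83 to 0.95) and Edn1 (-4.67 to 5.35) are the widest, and among the 7 genes only the 4-week interval of Thbd (-1.49 to -0.18) leaves out 0.

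Averaged over both time points, 5 of 7 members had lower fitted values in KO (median -0.40, against -0.02 over all genes) and 0 of 7 passed, where 13 of 13515 genes (0.0962%) passed in edgeR and 0 with a replicate block. Of all genes tested, 51.4% had lower fitted values in KO. The mean log2 fold changes were -0.53 for Thbd (SE 0.21, adjusted p = 0.338) and -0.57 for Klf4 (SE 0.25, adjusted p = 0.404). For Klf2 the value was -0.40 (95% interval -0.81 to 0.0036), for Piezo1 -1.39 (-2.90 to 0.12; -2.66 with adjusted p = 0.0549 without 2-week KO m2 and m3) and for S1pr1 -0.26 (-0.65 to 0.13). Nos3 at 0.03 (-0.67 to 0.74) and Edn1 at 0.06 (-1.99 to 2.10) had fitted values near 0 with wide intervals. Klf4 and Thbd were 2 of 7 members lower in KO at an unadjusted p below 0.05, against 5.83% of all genes.

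Over 42 pairs of members, 21 per time, 0 correlations between libraries passed after adjustment. The permutations took libraries of a time point as exchangeable once the genotype mean was removed, and did not use the replicate numbers. With the genotype mean removed, the highest r was that of Klf2 and Klf4 over the 9 libraries at 4 weeks (Pearson r = 0.85, permutation p = 0.0029, adjusted p = 0.072; Spearman rho = 0.78, adjusted p = 0.362), and r was 0.63 without the 2 libraries farthest from the Klf2 median. Piezo1 and S1pr1 had the lowest at 4 weeks (r = -0.82, permutation p = 0.0035, adjusted permutation p = 0.072; rho = -0.80), with r = -0.78 without 2 libraries. At 2 weeks the Klf2 and Klf4 correlation was -0.17 over 8 libraries, or 0.46 without the 2 farthest, and the 21 pairs had a median r of -0.01, against 0.32 at 4 weeks. Libraries of 1 time share that time point. Their depths ran from 26705337 to 40882715 counts at 2 weeks and from 20477400 to 33726630 at 4 weeks.

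**Figure D4:**
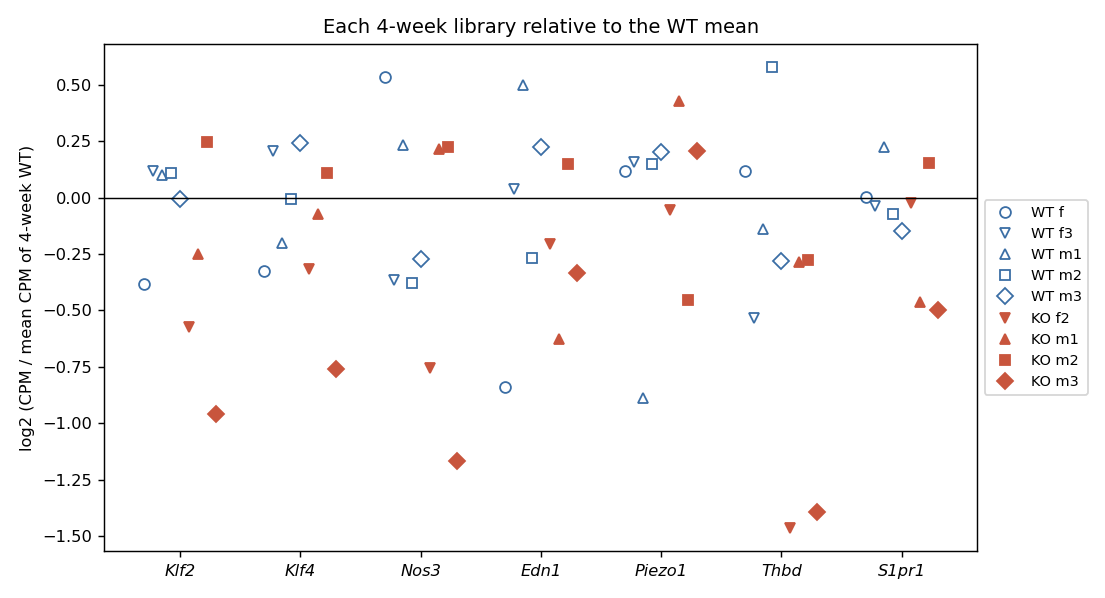
Log2 ratio of each 4-week library's CPM to the mean CPM of the 5 WT libraries, for each of the 7 genes; open blue symbols are WT and filled red symbols KO, with 1 symbol shape per replicate number. KO m3 is the lowest library for Klf2, Klf4, Nos3 and S1pr1, KO f2 is the lowest for Thbd, and KO m2 is the highest for Klf2.

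The genes most like each member over the 9 libraries at 4 weeks, by Pearson r with the genotype mean removed among 4711 genes, had r from 0.85 to 0.995, the highest of all genes by choice. For Klf2 they were Arl13b (0.91), Fryl (0.89) and Ackr3 (0.89), and for Klf4 they were Cd164 (0.97), Adss (0.88) and Klf2 (0.85). For Thbd they were Ap3m1 (0.99), Ptp4a1 (0.99) and Fut11 (0.99), and for S1pr1 Snx4 (0.96), Pparg (0.93) and Atg4d (0.92). For Piezo1 they were Mindy1 (0.97), Ccdc91 (0.94) and Zcchc14 (0.92), and for Edn1 Cox7a2l (0.98), Rpl17 (0.96) and Rps24 (0.94). For Nos3 they were Gm15587, Ppp4r3b (0.98) and Pfkfb3 (0.97).

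Between time points, unlike between genotypes, some members passed the test. Fitted values of 7 of 7 members were higher at 4 than at 2 weeks in WT and in KO, with median log2 fold changes of 1.37 and 1.01, against 0.27 and 0.34 over all genes. In WT, 2 of 7 members rose past the adjusted threshold in edgeR, where 8.04% of genes were called in either direction: Klf4 by 1.51 (SE 0.35, adjusted p = 0.0186) and Thbd by 1.37 (SE 0.29, adjusted p = 0.0104). In KO, 2 of 7 rose, against 7.56% of genes: Klf4 by 2.16 (SE 0.38, adjusted p = 0.0032) and Klf2 by 1.01 (SE 0.28, adjusted p = 0.0424). The Klf2 call in KO was lost without KO m2 and m3 of 2 weeks (0.98, adjusted p = 0.119), in voom (0.99, adjusted p = 0.197) and with no low-count filter (1.01, adjusted p = 0.0823). It was also lost without any 1 of 10 libraries (WT f3, m1, m2 or m3 and KO f2, m1 or m2 of 4 weeks, KO f1, f4 or m2 of 2 weeks), with edgeR adjusted p from 0.0503 to 0.109. The Klf4 call in WT was lost without 4-week WT f3 (1.36, adjusted p = 0.0601) and kept in the other 23 of 24 alternatives, and that in KO was kept in 24 of 25 and lost in voom (2.16, adjusted p = 0.0658). The Thbd call in WT was lost in voom (1.21, adjusted p = 0.12).

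Klf4 went from 30.2 to 109 CPM in 2-week WT to 193 to 286 CPM at 4 weeks, and from 28.6 to 47.0 CPM to 143 to 261 CPM in KO. Every 4-week library lay above every 2-week library of its genotype for Klf2, Klf4, Nos3, Edn1 and Thbd in WT, 5 of 7, where 17.4% of genes did so. In KO this held for Klf2, Klf4, Edn1, Piezo1 and Thbd, also 5 of 7, against 21.6% of genes. Piezo1 was 13.8 times as high in mean at 4 weeks in KO and 2.13 times in WT, with a fitted KO change of 3.48 (SE 1.02, adjusted p = 0.0525). Nos3 had fitted changes of 1.44 in WT (adjusted p = 0.0841) and 0.55 in KO (adjusted p = 0.725). S1pr1 differed least, by 0.29 in WT (95% interval -0.25 to 0.83) and 0.48 in KO (-0.10 to 1.06).

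Other lists moved with time as well. Of 13515 genes tested, 776 rose past the adjusted threshold in WT and 771 in KO (medians over all genes 0.27 and 0.34). Of 22 immediate early genes, such as Fos and Jun family members known to switch on during cell isolation, 12 rose in WT (median 2.80) and 13 in KO (median 3.45), with 0 falling, and their summed level was 1713 to 3209 CPM at 2 weeks and 13326 to 21246 CPM at 4 weeks. Klf2 and Klf4 are themselves known immediate early genes. Of 14 endothelial markers 5 rose past the adjusted threshold in each genotype (medians 1.02 and 0.94). The part of isolation response, of endothelial purity and of the mitochondrial share in the members' time difference was not tested.

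**Figure D5:**
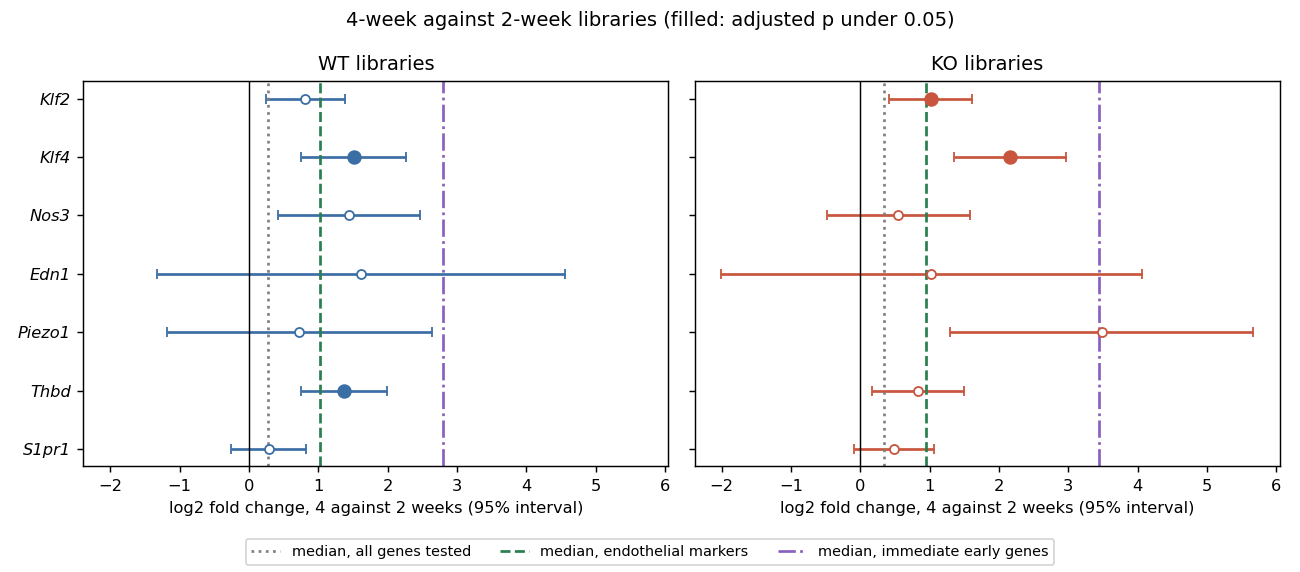
Log2 fold change of 4-week against 2-week libraries for the 7 genes in WT (left) and KO (right) with 95% intervals; filled points passed an adjusted p of 0.05, and vertical lines mark the medians of all genes tested, of 14 endothelial markers and of 22 immediate early genes. The members run from S1pr1 (0.29) to Edn1 (1.61) in WT and from S1pr1 (0.48) to Piezo1 (3.48) in KO, beside medians of 0.27 and 0.34 for all genes, 1.02 and 0.94 for endothelial markers and 2.80 and 3.45 for immediate early genes.

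Lists of pathway partners were read in the comparison of KO with WT averaged over both times, in edgeR. Beside each list stand all genes tested, of which 13 of 13515 (0.0962%) passed and 51.4% had lower fitted values in KO (median -0.02). Of 23 genes of flow sensing and MEKK3-ERK5-MEF2 signalling, 0 passed, with 16 lower and 7 higher fitted values (median -0.11). The smallest p was that of Pdcd10, which encodes an adaptor of the CCM complex that restrains MEKK3, at 43.0 ± 2.63 CPM in WT and 118 ± 42.6 CPM in KO at 2 weeks (SD, n = 4 each). At 4 weeks it was at 116 ± 12.3 CPM in WT and 121 ± 20.0 CPM in KO, and its mean log2 fold change was 0.78 (SE 0.16, adjusted p = 0.100). Kcnj2, a flow-sensitive potassium channel, was next by p (adjusted p = 0.557). It had 0 counts in all 4 WT and 3 of 4 KO libraries at 2 weeks, with 26.4 CPM in the other, and averaged 6.50 CPM in WT and 0.87 CPM in KO at 4 weeks. Map3k3, encoding MEKK3, had a value of -0.95 (SE 0.77) and Mef2d -0.89 (SE 0.72), both with adjusted p = 0.94.

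Of 17 tested genes that laminar flow or KLF2 and KLF4 induce, 0 passed, with 12 lower and 5 higher (median -0.21). By time, 13 of 15 were lower at 2 weeks (median -0.41), while 8 were lower and 9 higher at 4 weeks (median 0.016). Of all genes tested, 53.1% were lower at 2 weeks (median -0.06) and 48.7% at 4 weeks (median 0.01). Of the endothelial markers, 10 of 13 were lower at 2 weeks and 8 of 14 at 4 weeks (medians -0.19 and -0.05). The smallest p was that of Cited2, a transcriptional co-regulator, with higher fitted values in KO (3.22, SE 1.12, adjusted p = 0.316). It was at 0 to 0.053 CPM in WT and 0.034 to 10.6 CPM in KO at 2 weeks, and at 4 weeks the WT mean was 5.65 ± 2.71 CPM and the KO mean 7.85 ± 1.76 CPM. Gja5, the arterial connexin 40, was at -0.62 (SE 0.26, adjusted p = 0.38), with 51.8 CPM in WT and 32.1 CPM in KO at 2 weeks and 67.3 and 49.0 CPM at 4 weeks. Aqp1, a water channel of endothelium, was at -0.32 (SE 0.22) and Tek, the angiopoietin receptor, at -0.58 (SE 0.40). Of 12 genes raised in disturbed flow or repressed by KLF2, 0 passed, with 8 higher and 4 lower (median 0.36).

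Among those 12, Angpt2, the angiopoietin released by activated endothelium, averaged 54.6 ± 14.6 CPM in WT and 154 ± 34.0 CPM in KO at 4 weeks, with the lowest KO library at 120 CPM and the highest WT library at 62.0 CPM. At 2 weeks it was at 0 to 3.34 CPM in WT and 0 to 69.2 CPM in KO. Its mean log2 fold change was 2.39 (SE 1.07, adjusted p = 0.415). Apln, the peptide apelin of sprouting endothelium, was at 72.0 ± 29.1 CPM in WT and 156 ± 44.6 CPM in KO at 4 weeks, where library ranges overlapped, and at 1.81 (SE 0.77, adjusted p = 0.39) in the mean. At 2 weeks it was at 0 to 65.9 CPM in WT and 55.5 to 150.1 CPM in KO. Selp, the leukocyte-binding P-selectin, had lower fitted values in KO, with a mean log2 fold change of -2.13 (SE 1.18, adjusted p = 0.625). It was at 0 to 19.0 CPM in WT and 0 to 2.59 CPM in KO at 2 weeks and at 69.4 ± 49.7 and 52.1 ± 37.3 CPM at 4 weeks. Pdgfb, the growth factor that recruits pericytes, was at 0.34 (SE 0.21, adjusted p = 0.713).

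Of 15 partners of nitric oxide and endothelin, 0 passed, with 11 lower and 4 higher (median -0.09). Ece1, the protease that activates endothelin, was at -0.58 (SE 0.26, adjusted p = 0.415) and was 348 ± 41.6 CPM in WT and 218 ± 54.9 CPM in KO at 2 weeks. At 4 weeks it was at 812 ± 345 CPM in WT and 614 ± 353 CPM in KO (log2 fold change -0.54, SE 0.43). The chaperone genes Hsp90ab1 and Hsp90aa1, whose products bind nitric oxide synthase, were both at -0.17 in the mean (SE 0.11 and 0.16). Nostrin, which draws nitric oxide synthase from the membrane, had 0 counts in all 4 WT libraries at 2 weeks and 0 to 29.3 CPM in KO, and 13.8 CPM in WT and 12.9 CPM in KO on average at 4 weeks. Of 12 partners of S1P and thrombomodulin, 0 passed, with 6 in each direction (7 of 8 higher at 2 weeks, 5 of 12 at 4 weeks). S1pr2 and S1pr3, the other endothelial S1P receptors, had 0 counts in all 2-week KO libraries, and 3 of the 4 WT libraries there also had none. Procr, the receptor for protein C, was at 0.45 in the mean (SE 0.34, adjusted p = 0.891). Sgpl1, which degrades S1P, was at 0 to 52.5 CPM in WT and 0 to 11.7 CPM in KO at 2 weeks and averaged 21.0 CPM in WT and 12.5 CPM in KO at 4 weeks.

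Of 14 tested genes of endoglin and ALK1 signalling only Eng passed, with 9 lower and 5 higher (median -0.20). Over all genes 0.0962% passed and 51.4% were lower (median -0.02). Id1 and Id3, early targets of BMP9 signalling, were at -0.25 (SE 0.13, adjusted p = 0.534) and -0.16 (SE 0.07, adjusted p = 0.427). Bmp2 had 0 counts in all 2-week KO libraries and 0 to 28.9 CPM in WT, and it averaged 10.5 CPM in WT and 23.0 CPM in KO at 4 weeks.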

How the data were processed

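Raw counts per gene were deposited by the authors, 1 table per library, with no normalization seen in the values. Per the submitters' processing notes the tools were cutadapt, STAR and HTSeq 0.6.1p1, with builds GRCm38 and mm10; settings and annotation are not given in the sources used here. Symbols and positions came from GENCODE M21 (GRCm38), which left 259 identifiers without a symbol.

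edgeR 4.0.16 in R 4.3.3 used filterByExpr, TMM and a sex term, for each time alone (KO against WT) and for all 17 libraries (time effects, difference and mean of KO effects), with Benjamini-Hochberg adjustment over all genes of a fit, and was tested on simulated data. Exact two-sided permutation tests used log2 CPM with a prior count of 2. Their p-values for KO against WT in single members were not adjusted for the number of tests. DESeq2 1.42.0 and limma 3.58.1 were alternatives. Labels do not say that libraries come from separate mice, so p-values measure the spread between libraries. Counts are of amplified fragments without molecular identifiers, so floors cover counting error only.

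At 4 weeks the deviations of WT and KO libraries of equal number had correlations of 0.41 (m1), 0.139 (m2) and 0.535 (m3). The KO library most correlated with WT m2 was m1, not m2. Same-number correlations at 2 weeks were -0.011 to 0.067. The replicate block used the replicate number within a time point in place of sex, with the 4-week females, whose numbers differ, as 1 block. Members and lists were chosen with earlier results of these data known. Named genes were the 7 members, Eng, up to 4 genes per list with the smallest p in the mean KO effect, and the 3 best correlated genes per member.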

Additional observations from a re-analysis of the deposited data

Results flagged for a closer look

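Of 28 groups of a member's CPM values tested for a library standing apart by Dixon's criterion, 3 held one, and chance flags about 1 in 20 groups. In 4-week WT, Klf2 was lowest in f at 193.6 CPM, with a gap of 0.722 of the group's range. In the same group Piezo1 was lowest in m1 at 48.0 CPM, a gap of 0.892 of the range, while the other 4 libraries lay between 96.5 and 102 CPM. In 2-week KO, S1pr1 was highest in f4 at 1102 CPM, a gap of 0.884 of the range.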

How the results depend on the processing

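For the members, 0 of 7 passed between KO and WT under any alternative fit of the 2-week, 4-week, mean or difference comparison. Counts over all genes moved more. At 2 weeks 149 genes passed in DESeq2, 12 in voom with quality weights and 33 in the joint fit of all libraries, and at 4 weeks 17 passed in DESeq2. For the difference of KO effects the counts were 6 with no low-count filter, 0 with at least 10 counts in every library, 929 in DESeq2, 9 in voom, 0 with a replicate block and 278 without 2-week KO m2 and m3. For the mean KO effect they were 8, 3, 1004, 9, 0 and 325, and 30 with no sex term. For 4 against 2 weeks they were 580 (WT) and 567 (KO) with no filter, 639 and 626 with at least 10 counts, and 2090 and 2144 in DESeq2. Leaving out 1 library gave 0 to 0 calls at 2 and at 4 weeks, 7 to 52 for the difference, 5 to 62 for the mean, 520 to 1398 for time in WT and 604 to 1300 in KO. A filter of 10 counts in every library removed Edn1 and Piezo1 from the 2-week and joint fits, and time effects could not be fitted with a replicate block.

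Signs turned for several members, none of which had passed. With a replicate block Edn1 was at -0.17 at 2 weeks and -0.19 in the mean. Without 2-week KO m2 and m3, S1pr1 was at 0.13 at 2 weeks and -0.12 in the difference, and Nos3 at -0.031 in the mean. In the joint fit Piezo1 at 4 weeks was at -0.012. Leaving out 1 library turned Edn1 at 2 weeks (range -1.34 to 2.04; exact test -1.33 to 3.01), Thbd at 2 weeks (-0.44 to 0.043), Nos3 at 4 weeks (-0.43 to 0.0018), Piezo1 at 4 weeks (-0.092 to 0.24; exact test -0.13 to 0.25), the differences of Klf2 (-0.038 to 0.35), Edn1 (-1.54 to 0.25) and S1pr1 (-0.020 to 0.50), and the means of Nos3 (-0.12 to 0.19) and Edn1 (-0.40 to 0.57). The cause was not tested. Time calls of Thbd and Klf4 in WT held in 23 of 24 alternatives each, that of Klf4 in KO in 24 of 25 and that of Klf2 in KO in 12 of 25; Piezo1 in KO passed in 6 of 24. The alternative without KO m2 and m3 for the time effect was chosen after seeing the data. A floor of 3 counts was 0.0734 to 0.147 CPM, and of the members only Edn1 in 2-week WT m2 and KO f1 and Piezo1 in 2-week KO f1 lay under it.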
